A study of Oryctolagus cuniculus with 6 samples.

Results

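The genes described here are 30 rabbit genes that the study's deposited Gene Ontology (GO) enrichment table lists under proteolysis, out of 16815 genes in the deposited count table. They were chosen by measured values: the table lists genes of a cluster that was lower with the hydrogel, and the libraries used for that choice are the same 6 that are described below. RNA was sequenced from the trachea of wild-type rabbits (Oryctolagus cuniculus) on day 14 in 2 groups of 3 libraries. The hydrogel group had an epithelial injury and received a hydrogel labelled LA@PA-TA@C. The blank group is labelled only with epithelial deficiency, so both labels name an epithelial lesion and no uninjured trachea is among the libraries. The design text describes the 3 libraries of each group as biological replicates, and the labels give no age. Library totals were 16827419 to 23095010 counts in hydrogel and 17292087 to 23390531 counts in blank, and p-values and spreads refer to these 6 libraries.

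Proteolysis is the cutting of peptide bonds by proteases. In injured airway tissue, secreted and membrane-bound proteases such as matrix metalloproteinases, plasminogen activators and leukocyte elastases cut the provisional matrix and release bound growth factors, while cysteine cathepsins work mainly in lysosomes. Their activity is held in check by inhibitors and by synthesis as inactive precursors, so the amount of transcript is not the amount of active enzyme. The GO term gathers these enzymes by function and not by family or cell of origin. The deposited tables name the 30 genes by Ensembl rabbit identifier alone, and a reference gene table held 0 of the 16815 identifiers. Which of the 30 are metalloproteases, serine proteases or cysteine proteases is therefore not stated here, and markers that would check the tissue and its cell types could not be read.

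All 30 genes had a lower fitted level in hydrogel tracheae than in blank tracheae, which follows from how they were listed; 51.4% of all tested genes had a fold change on that side. The median log2 fold change (hydrogel over blank) was -1.91, against -0.03 over all 13598 genes tested. The fold changes ran from -8.03 to -1.003, with the middle of the list between -2.92 and -1.35 at its quartiles. The value of -8.03 is that of ENSOCUG00000015893, which had no count in hydrogel, so its size depends on the fit (-7.47 in DESeq2). In 15 genes the fitted level was under a log2 fold change of -2, and in the other 15 it lay between -2 and -1. Of the 30 genes, 11 had an adjusted p under 0.05 in a fit over all genes (edgeR quasi-likelihood test, Benjamini-Hochberg adjustment), where 1.88% of all tested genes were called lower, and 0 were called higher, where 4.49% of all tested genes were (6.36% in either direction). The adjusted p of the 11 genes ran from 0.0224 to 0.0456 in this edgeR test. Because the listing used this same comparison, these numbers describe the genes and are not a test of them. Tracheae with fewer cells of a type and tracheae with less RNA per cell cannot be told apart in such bulk libraries.

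The authors' deposited enrichment table gives 288 background genes annotated to proteolysis, of which the 30 listed ones are 10.4%. The other 258 are not named there, so they are not described. The term had an adjusted p of 0.00615 in the authors' deposited table, among 369 annotated genes of the cluster and 8089 annotated genes in all. The title of the authors' deposited table of differential expression names DESeq2 and an adjusted p of 0.05. The fold limit behind the cluster is not stated in the sources used here. A DESeq2 repeat on the counts placed all 136 genes listed under terms of this cluster at an adjusted p of 0.04998 or less and an absolute log2 fold change of 1.003 or more. Both of these edges belong to proteolysis genes: ENSOCUG00000008303 had the largest adjusted p and ENSOCUG00000009967 the smallest fold change. Over all genes tested by DESeq2, 653 of 14639 (4.46%) were lower in hydrogel within an adjusted p of 0.05 and a log2 fold change under -1. Genes of the same term just outside these limits could not be given, because the table lists none.

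**Figure D1:**
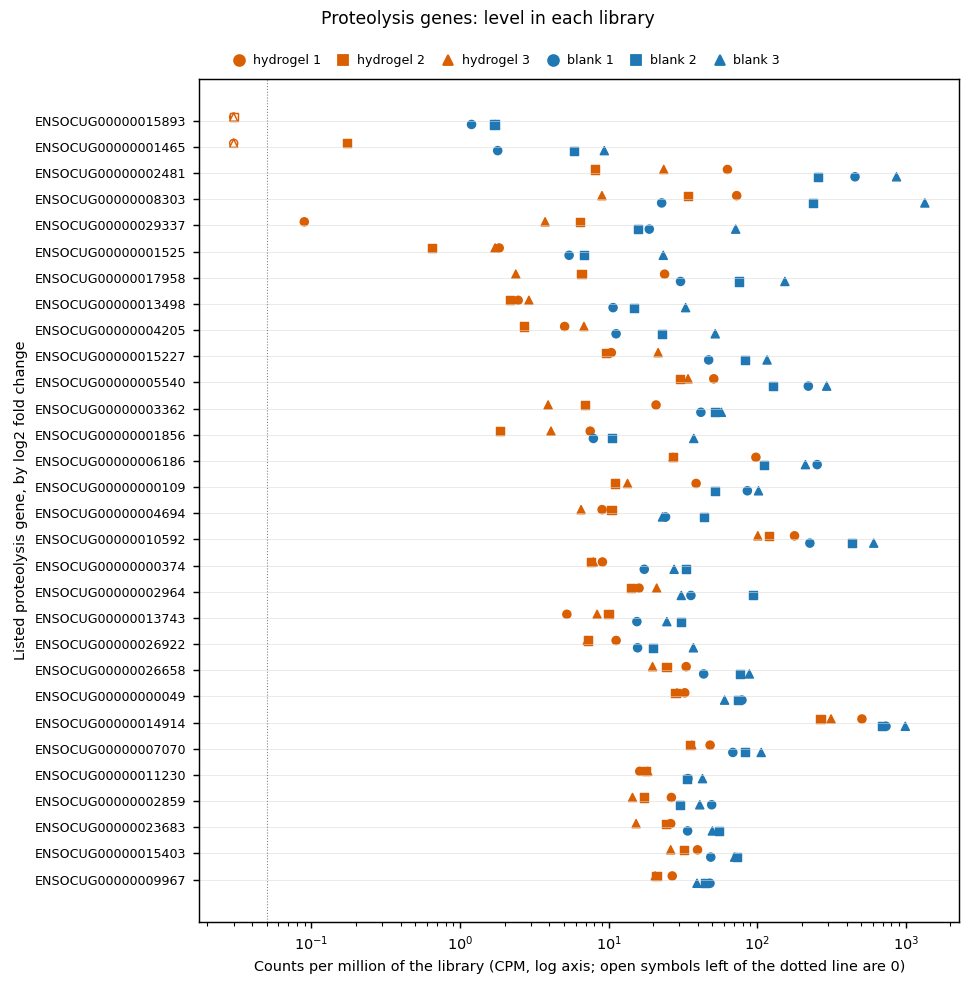
Level of each of the 30 proteolysis genes in each library, in CPM on a log axis, with hydrogel libraries in orange and blank libraries in blue and the genes ordered by fitted log2 fold change. In 29 genes all 3 hydrogel libraries lie left of all 3 blank libraries, and in ENSOCUG00000008303 they overlap. Of all tested genes 12.6% had hydrogel entirely below blank, and the listing favours this arrangement.

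Over the list as a whole, the level was lower in every hydrogel library than in every blank library, which the listing on these same 6 libraries also favours; the values are a description. The geometric mean over the 30 genes was 13.5, 9.87 and 9.66 CPM (counts per 1000000 counts of the library) in hydrogel replicates 1, 2 and 3, against 34.7, 47.0 and 70.1 CPM in blank replicates 1, 2 and 3. The group means were 11.0 ± 2.15 CPM in hydrogel and 50.6 ± 18.0 CPM in blank (SD, n = 3 each). Hydrogel replicate 1 was the highest of its group and blank replicate 1 the lowest of its group, and the groups did not overlap. Together the 30 genes took 0.138%, 0.0785% and 0.0801% of all counts in the hydrogel libraries and 0.269%, 0.290% and 0.562% in the blank libraries. Blank replicate 3 stood apart, with about as large a share as the other blank libraries combined. The group shares were 0.0990 ± 0.0340% in hydrogel and 0.374 ± 0.164% in blank (SD, n = 3 each).

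A few genes held most of these counts. The 5 with the highest mean CPM made up 58.5% to 63.2% of the list's counts in the hydrogel libraries and 60.4% to 73.1% in the blank libraries. Counts were not divided by gene length, so the order of genes by CPM is an order of reads and not of molecules. ENSOCUG00000014914 had the most reads, with 508, 267 and 315 CPM in hydrogel replicates 1, 2 and 3 and 737, 692 and 994 CPM in the blank ones. Its groups did not overlap, but its log2 fold change of -1.22 (approximate SE 0.31) was among the smaller ones of the list, and it was not called by edgeR. Without this gene the hydrogel share was 0.0627% of all counts and the blank share 0.293%.

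ENSOCUG00000010592 was at 179, 119 and 101 CPM in the hydrogel libraries and at 227, 435 and 609 CPM in the blank libraries. Its log2 fold change was -1.72 (approximate SE 0.38) and it was called. The highest hydrogel value came from replicate 1 and the lowest blank value from replicate 1, a pattern that recurs below. ENSOCUG00000002481 had 63.2, 8.10 and 23.5 CPM in hydrogel replicates 1, 2 and 3, against 456, 258 and 868 CPM in the blank ones. This gene combined a high read count with a wide gap: its lowest blank library was 4.09 times its highest hydrogel library, and its log2 fold change of -4.16 (approximate SE 0.84) was the lowest among the called genes. That fold change was -5.14 with hydrogel replicate 1 left out and -3.56 with blank replicate 3 left out, and the second of these was no longer called (edgeR adjusted p 0.0649). The gene was called in 2 of the 6 edgeR fits without 1 library. ENSOCUG00000005540 was at 51.1, 30.3 and 34.3 CPM in hydrogel and at 221, 127 and 294 CPM in blank, a log2 fold change of -2.56 (approximate SE 0.40). It had the smallest adjusted p of the list, 0.0224 (edgeR quasi-likelihood test), with every hydrogel library below every blank library.

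ENSOCUG00000008303, the remaining gene of these 5, is also listed under wound healing in the authors' deposited table. It was at 72.9, 34.2 and 9.03 CPM in hydrogel replicates 1, 2 and 3, against 22.8, 238 and 1346 CPM in the blank ones. The ratio of 59.1 between its highest and lowest blank library was the largest of the list. Blank replicate 1 therefore lay below hydrogel replicates 1 and 2, and this was the single gene of the 30 whose groups overlapped. Its log2 fold change of -3.89 (approximate SE 1.40) became -1.65 without blank replicate 3 and ranged from -4.72 to -1.65 over the 6 fits that each left out 1 library. In blank replicate 3 it was the most counted gene of the list, at 23.9% of the list's counts.

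**Figure D2:**
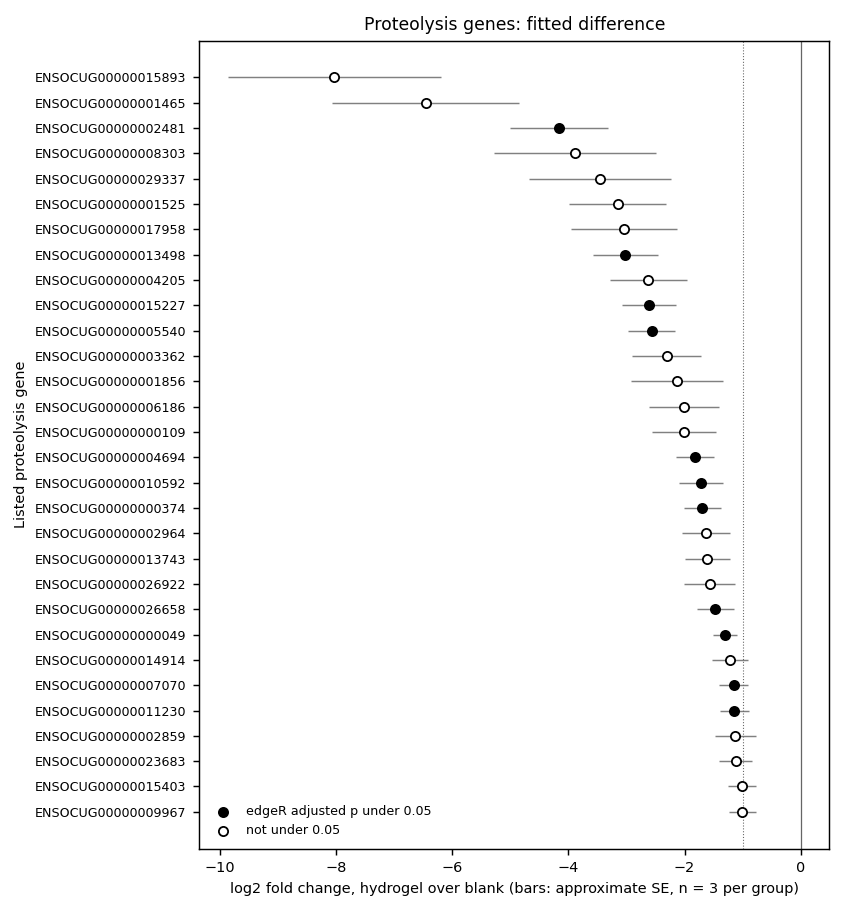
Fitted log2 fold change of each gene, hydrogel over blank, with the approximate standard error as a bar; filled points had an edgeR adjusted p under 0.05. The 11 filled points lie between -4.16 and -1.14, and the widest bars belong to the 2 genes with the lowest fold changes; the value of ENSOCUG00000015893, which had no count in hydrogel, depends on the fit and is no bound.

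The size of the difference and the call did not go together. The 11 called genes had a median log2 fold change of -1.72 and the 19 others a median of -2.01. The spread between libraries differed between them mainly in hydrogel. The median SD of log2 CPM in the hydrogel group was 0.34 for the called genes and 0.67 for the others. In the blank group these medians were 0.54 and 0.62. Single genes went against this: ENSOCUG00000002481 was called at a hydrogel SD of 1.47, and ENSOCUG00000009967 was not called at 0.21. A call depends on this spread, so the difference in spread is given as a description. The adjusted p of the 19 others ran from 0.0513 to 0.160 (edgeR quasi-likelihood test), and without adjustment all 30 genes were under 0.05, where 10.7% of all tested genes were lower at that threshold.

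Among the called genes, a tight set with small changes stood beside a looser set with large ones. ENSOCUG00000000049 was at 32.6, 28.2 and 28.9 CPM in the hydrogel libraries and at 79.1, 74.2 and 60.4 CPM in the blank libraries, with a log2 fold change of -1.30 (approximate SE 0.21). ENSOCUG00000011230 was at 16.2, 17.8 and 18.4 CPM in hydrogel, against 34.2, 34.0 and 42.9 CPM in blank, and had the smallest fold change of the called genes, -1.14 (approximate SE 0.25). In both genes the libraries of a group lay within a ratio of 1.31 of each other, and the groups were well apart. ENSOCUG00000000374 had 9.10, 7.58 and 7.90 CPM in hydrogel and 17.4, 33.1 and 27.6 CPM in blank, so the spread was on the blank side.

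The next called genes show that same uneven spread. ENSOCUG00000007070 was at 48.3, 35.4 and 36.4 CPM in hydrogel and at 68.7, 82.6 and 107 CPM in blank, a log2 fold change of -1.16. ENSOCUG00000026658 was at 33.3, 24.6 and 19.8 CPM in hydrogel and at 43.7, 76.5 and 88.7 CPM in blank, at -1.47. In both, hydrogel replicate 1 and blank replicate 1 were the closest libraries across the groups. ENSOCUG00000004694 was at 9.05, 10.5 and 6.54 CPM in hydrogel and at 24.2, 43.8 and 23.1 CPM in blank, at -1.82. Here blank replicate 2 alone was high, and blank replicate 3, the highest library for most of the list, was the lowest of its group.

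In the last called genes, which had larger changes, the blank libraries were far from each other. ENSOCUG00000015227 was at 10.4, 9.61 and 21.6 CPM in hydrogel and at 47.2, 82.6 and 117 CPM in blank, a log2 fold change of -2.61 (approximate SE 0.47). Its spread was alike in both groups, with an SD of log2 CPM of 0.64 in hydrogel and 0.66 in blank. ENSOCUG00000013498 was at 2.47, 2.16 and 2.91 CPM in hydrogel and at 10.7, 14.8 and 33.0 CPM in blank, at -3.02 (approximate SE 0.56). The hydrogel libraries of this gene lay close together, while blank replicate 3 had 3.08 times the level of blank replicate 1. Without blank replicate 3 its fold change was -2.33 and it was no longer called (edgeR adjusted p 0.0558). It was called in 2 of the 6 edgeR fits without 1 library.

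At the low end of detection, 2 genes were nearly or fully absent from hydrogel tracheae. ENSOCUG00000015893 had no count in any hydrogel library and 28, 36 and 30 counts in blank replicates 1, 2 and 3, which are 1.197, 1.71 and 1.73 CPM. Against a floor of 3 counts in each hydrogel library, its level was at least 10.5-fold lower in hydrogel. ENSOCUG00000001465 had 0, 4 and 0 counts in hydrogel and 42, 123 and 162 counts in blank. Its blank level over its hydrogel level was 82.4 (exact 95% interval 31.9 to 304, for counting error only), and all 4 hydrogel counts came from replicate 2. Neither gene was called by edgeR. With ENSOCUG00000015893 set at its bound the median of the list was the same, -1.91.

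Among the genes that were not called, the hydrogel libraries disagreed for several. ENSOCUG00000029337 had 2, 149 and 63 counts in hydrogel replicates 1, 2 and 3, or 0.0896, 6.45 and 3.74 CPM, against 18.8, 15.9 and 71.8 CPM in blank. Its hydrogel replicate 1 was the lowest of its group. That library was lowest or tied lowest in 4 of the 29 genes with a count in hydrogel, and highest in 20. ENSOCUG00000017958 was at 23.8, 6.58 and 2.38 CPM in hydrogel and at 30.5, 76.0 and 154 CPM in blank. Its hydrogel replicate 1 lay nearer to blank replicate 1 than to the other hydrogel libraries in CPM. ENSOCUG00000003362 was at 20.9, 6.97 and 3.92 CPM in hydrogel, against a narrow blank range of 41.9, 52.4 and 57.5 CPM. Hydrogel replicate 1 was again the high one. ENSOCUG00000006186 was at 98.2, 27.3 and 27.2 CPM in hydrogel and at 254, 111 and 211 CPM in blank, and ENSOCUG00000000109 had the same shape, with 38.9, 11.0 and 13.4 CPM in hydrogel and 86.0, 52.0 and 102 CPM in blank. In these last genes blank replicate 2 was the low one.

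In other genes that were not called, the blank libraries were far apart. ENSOCUG00000004205 was at 5.07, 2.68 and 6.83 CPM in hydrogel and at 11.2, 22.9 and 52.3 CPM in blank. ENSOCUG00000001856 was at 7.53, 1.86 and 4.10 CPM in hydrogel and at 7.91, 10.6 and 37.5 CPM in blank. The hydrogel libraries of the second gene were also far apart, at a ratio of 4.04 against 4.74 in blank. Its groups are separated only by the small step between 7.53 and 7.91 CPM, and its log2 fold change of -2.13 became -1.04 without blank replicate 3. That of ENSOCUG00000004205, -2.62 with all libraries, became -1.77. ENSOCUG00000002964 was at 16.0, 14.2 and 21.1 CPM in hydrogel and at 35.9, 94.3 and 30.9 CPM in blank, where replicate 2 was the high library.

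Of the 30 genes, 5 are also listed under another term of the authors' deposited tables, each under a different one of the 40 other terms, and 25 are under none. One is ENSOCUG00000008303, above. ENSOCUG00000001525, listed under heart development, was at 1.84, 0.649 and 1.72 CPM in hydrogel and at 5.43, 6.83 and 23.4 CPM in blank, with a log2 fold change of -3.15 (approximate SE 0.83) that was -2.12 without blank replicate 3. ENSOCUG00000026922, listed under cellular response to interleukin-1, an inflammatory cytokine, was at 11.3, 7.23 and 7.19 CPM in hydrogel and at 15.7, 20.0 and 37.2 CPM in blank, at -1.57 (approximate SE 0.44). In both of these genes blank replicate 3 was the highest of all libraries and the groups did not overlap.

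ENSOCUG00000013743 is listed under protein digestion and absorption, a pathway of the KEGG database that covers digestive peptidases, transporters of their products, and collagens. It was at 5.24, 10.0 and 8.38 CPM in hydrogel and at 15.5, 30.8 and 24.7 CPM in blank, at -1.61 (approximate SE 0.39), and here replicate 1 was the lowest library in both groups. ENSOCUG00000009967, listed under response to hypoxia, was at 26.8, 21.0 and 20.6 CPM in hydrogel and at 48.2, 44.7 and 39.4 CPM in blank, with the smallest fold change of the list, -1.003 (approximate SE 0.24). Its blank libraries lay within a ratio of 1.22, the narrowest blank range of the 30. None of the 30 is among the 9 genes listed for extracellular matrix organization, so the 2 lists share 0% of each. The same holds for most of the 40 other terms, of which 5 share a gene with the 30. None of the 5 shared genes was called by edgeR.

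The remaining genes had log2 fold changes close to -1. ENSOCUG00000002859 was at 26.5, 17.4 and 14.5 CPM in hydrogel and at 49.5, 30.5 and 41.1 CPM in blank, ENSOCUG00000023683 at 26.2, 24.3 and 15.3 CPM in hydrogel and at 34.1, 55.5 and 50.0 CPM in blank. ENSOCUG00000015403 was at 39.7, 32.2 and 26.2 CPM in hydrogel and at 48.8, 73.6 and 70.6 CPM in blank. In all of them hydrogel replicate 1 was the highest hydrogel library, and the step to the lowest blank library was a ratio of 1.15 to 1.30.

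The gap between the groups was narrow for much of the list. Over the 29 genes with a count in hydrogel, the lowest blank library was a median of 1.47 times the highest hydrogel library. That ratio was under 1 in 1 gene, from 1 to 1.5 in 14 genes, from 1.5 to 2 in 5 genes and at least 2 in 9 genes. Hydrogel was entirely below blank in 29 of the 30 genes, where 12.6% of all tested genes had that arrangement, and nothing is read from this count because the listing favours it. In the 15 genes with a ratio under 1.5, hydrogel replicate 1 was the highest hydrogel library in 14 and blank replicate 1 the lowest blank library in 9.

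**Figure D3:**
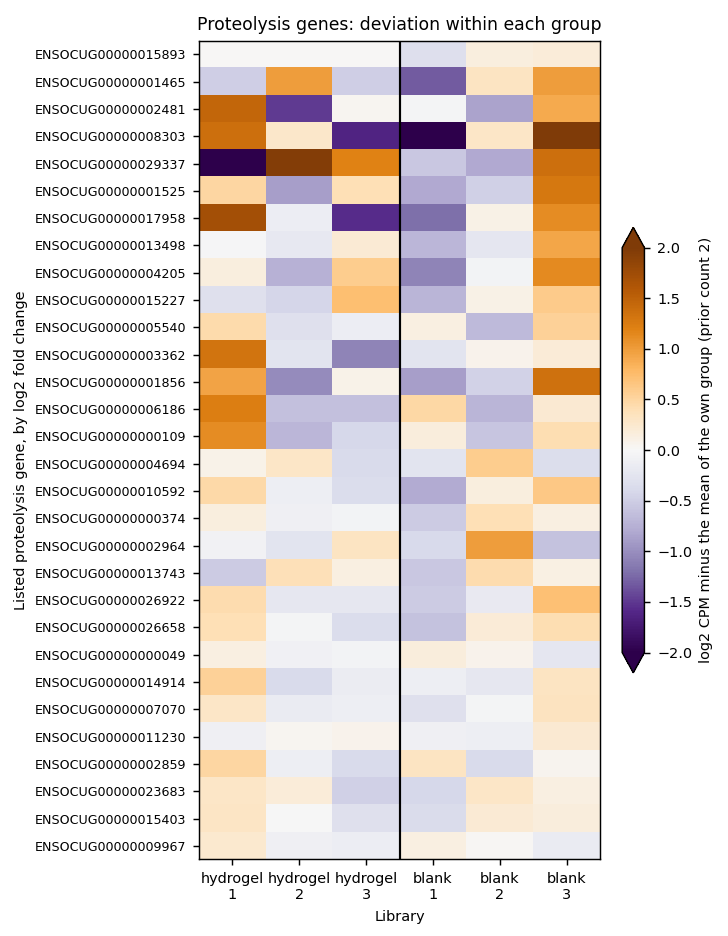
Deviation of log2 CPM (prior count 2) from the mean of the own group, for each gene and library, with the hydrogel libraries left of the blank ones; colours are cut off at 2 in either direction. Hydrogel replicate 1 lay above its group mean in 22 of 30 genes and blank replicate 3 above its own in 26, while blank replicate 1 did so in 6. The shares over all tested genes were not computed for these counts, so they are a description.

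Within each group the 30 genes tended to vary together. Hydrogel replicate 1 was the highest hydrogel library in 20 of the 29 genes with a count there, or 69.0%, where it was the highest in 41.4% of all tested genes. Blank replicate 3 was the highest blank library in 20 of 30 genes, or 66.7%, against 28.8% of all tested genes, and blank replicate 1 was the lowest in 18, or 60.0%, against 35.3%. Both held at once, hydrogel replicate 1 and blank replicate 3 as the highest of their groups, in 13 genes. The joint share over all tested genes was not computed, so nothing is read from the 13. The 600 other tested genes that were lower in hydrogel within the same DESeq2 limits leaned the same way, with hydrogel replicate 1 highest in 53.5% and blank replicate 3 highest in 54.2%. The genes of 1 library are not independent, and no test of the difference in shares was made.

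The spread was larger in blank than in hydrogel for 20 of the 30 genes and smaller for 10. The median SD of log2 CPM over the 30 genes was 0.43 in hydrogel and 0.58 in blank, against 0.38 and 0.50 over all tested genes. The ratio of the highest to the lowest library had a median of 1.80 in hydrogel, over the 28 genes with a count in every hydrogel library, and 2.15 in blank. In blank that ratio was above 3 for 10 genes and under 1.5 for 6.

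**Figure D4:**
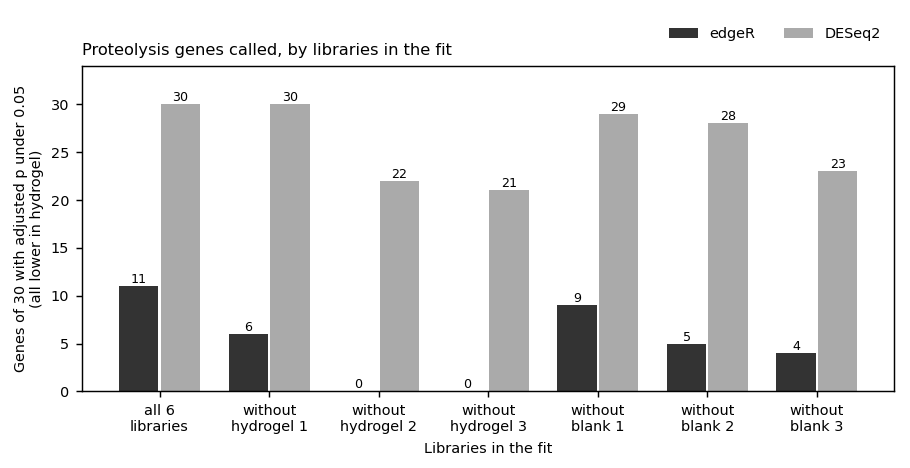
Number of the 30 proteolysis genes with an adjusted p under 0.05, all of them lower in hydrogel, in edgeR (dark bars) and DESeq2 (light bars) fits over all genes, with all 6 libraries and with each library left out. The edgeR count is 11 with all libraries and 0 without hydrogel replicate 2 or 3, where under 0.05% of all tested genes were called lower, while the DESeq2 count lies between 21 and 30.

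How many of the genes were called rested on the test and on single libraries. With edgeR the count of 11 became 6 when hydrogel replicate 1 was left out, where 0.755% of all tested genes were called lower. It was 0 when either of the other hydrogel libraries was left out, but there the calls were lost over the whole transcriptome: 0.0144% of all tested genes were called lower without replicate 2 and 0.0286% without replicate 3. Leaving out blank libraries gave 9 genes for replicate 1, 5 for replicate 2 and 4 for replicate 3, beside 0.986%, 1.76% and 0.731% of all tested genes. At each count of 0, edgeR still put 27 genes under 0.05 before adjustment, where 6.42% (hydrogel replicate 2 left out) and 7.48% (hydrogel replicate 3 left out) of all tested genes were lower at that threshold. DESeq2 called 22 and 21 genes in these fits, beside 3.45% and 3.38% of all genes it tested. All these shares over the 30 genes carry the listing with them, so nothing is read from their excess. The genes called in the most edgeR fits without 1 library were ENSOCUG00000005540 and ENSOCUG00000000049, in 4 of 6 fits. With DESeq2, the test behind the listing, all 30 passed with all 6 libraries, where 5.62% of all genes tested by DESeq2 were called lower. The listing gives this count in advance. In every DESeq2 fit without 1 library 18 passed, and each such fit called 3.38% to 6.53% of all genes it tested lower. The share of all genes that passed in every one of these fits was not computed, so nothing is read from the 18. ENSOCUG00000008303 passed in 2 of these 6 DESeq2 fits: its adjusted p of 0.04998 with all libraries was 0.476 without blank replicate 3 and 0.00208 without blank replicate 1. In every fit named here the fold changes of all 30 genes stayed below 0.

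The size of the fold change also rested on single libraries in 12 of the 30 genes, where it moved by more than 1.5 times in at least 1 of the 6 edgeR fits: 6 genes moved with hydrogel replicate 1 left out, 2 with hydrogel replicate 2 left out and 9 with blank replicate 3 left out. Without blank replicate 3, ENSOCUG00000029337 was at -2.37 in place of -3.46 and ENSOCUG00000017958 at -2.24 in place of -3.05, so both differences became smaller. Without hydrogel replicate 1 the differences became larger: ENSOCUG00000017958 was then at -4.32, ENSOCUG00000003362 at -3.26 in place of -2.31, ENSOCUG00000006186 at -2.90 in place of -2.01 and ENSOCUG00000000109 at -2.78 in place of -2.01. The last 3 of these genes, which were not called with all libraries, were called in that fit. Without hydrogel replicate 2, ENSOCUG00000029337 was at -4.29, and ENSOCUG00000001465 had no hydrogel count left, so that no fold is given for it; without blank replicate 3 it was at -5.80.

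In the authors' deposited table of differential expression, which holds 1019 genes with an absolute log2 fold change of at least 2.00, 15 of the 30 genes appear. They are the 15 with a fitted log2 fold change under -2 here. Among these 15 genes, the lowest values in the authors' deposited table were -7.47 for ENSOCUG00000015893 and -6.58 for ENSOCUG00000001465. The smallest adjusted p among the 15 was 5.07e-08 for ENSOCUG00000002481 (the authors' DESeq2 test). The other genes of that table were not compared with them. The authors' deposited table does not hold 7 of the 11 genes called here by edgeR, all with a fold change between -2 and -1, among them ENSOCUG00000000049 and ENSOCUG00000011230.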

How the data were processed

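The authors deposited whole-number counts per gene for 16815 Ensembl rabbit identifiers in 6 libraries. Per the submitters' processing notes, tools included HISAT2 2.2.1, featureCounts 2.0.2 and DESeq2 1.34.0. The genome builds named in those notes are a human and a mouse one. For the rabbit genome, build, annotation and strand setting were not given in the sources used here, so overlapping genes and near copies may share reads. Log2 fold changes and adjusted p-values quoted as the authors' come from their deposited tables. Of 67 sheets in a workbook, 3 were used; 462 columns in other sheets were left aside.

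The counts were fitted with edgeR 4.0.16 in R 4.3.3 (TMM scaling, filterByExpr, quasi-likelihood test, groups as sole term, Benjamini-Hochberg over 13598 genes, threshold 0.05), after the code was tested on simulated data. All 30 genes passed the filter. Approximate standard errors were derived from fold change and F statistic. CPM used library totals; log2 CPM and geometric means used a prior count of 2. The genes to be named were the called ones, the 5 with the highest mean CPM, the 3 with the smallest fold change, and those that overlapped between groups or had 0 counts in a library; the others were added after their values were seen, to account for every gene. Alternatives were DESeq2 1.42.0, limma-voom (limma 3.58.1), other scalings, no filter, a replicate block, and leaving out single libraries. Lists and markers by symbol could not be used. The genes, lists and tests were chosen with earlier results of these data known.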

Additional observations from a re-analysis of the deposited data

How the results depend on the processing

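The median log2 fold change of the 30 genes, -1.91 in the main fit, was followed over 13 alternatives. It ran from -2.20 to -1.71 without 1 library and from -1.99 to -1.83 otherwise. The listing used these same libraries, so the ranges are a description. With the DESeq2 test, 2104 genes were called in all, 1281 higher and 823 lower, and all 30 proteolysis genes, which the listing gives in advance. With the replicate block, 15 genes were called in all, 10 higher and 5 lower, and 0 proteolysis genes, of which 28 had an unadjusted p under 0.05 (edgeR); 0.0368% of all tested genes were called lower and 7.41% were lower at that unadjusted threshold. The deviations of same-numbered libraries from their group means had correlations across genes of -0.20, 0.01 and -0.10. With group means taken over 3 libraries, these values cannot decide whether same-numbered libraries were paired. With single libraries left out, edgeR called between 7 and 741 genes, of which 5 to 603 were higher and 2 to 246 lower, and 0 to 9 proteolysis genes; DESeq2 called 21 to 30 proteolysis genes, an alternative chosen after seeing the data. The count of proteolysis genes was 10 to 14 with other scalings or no filter in edgeR, or with limma-voom, where 1.43% to 2.37% of all tested genes were called lower. The share of counts in hydrogel was 0.0627% without the gene with the most counts, in place of 0.0990%. Over all alternatives, 300 values of single genes kept their side of the threshold, 29 passed it and 61 no longer did; 0 changed direction. The cause of these differences was not tested. With 3 libraries per group, adjusted p-values between 0.0224 and 0.160 lie on both sides of the threshold for genes of like fold change.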
